A study of Mus musculus with 2 samples.

Results

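The cells described here are neutrophils of mouse bone marrow that carry transcripts of the chemokine receptor Cxcr2 but no count of the chemokine Cxcl2 and at most 1 count of the stefin A genes. They numbered 4079 of 28382 kept cells, 2181 in the T1D library and 1898 in the control library. Kept cells had 200 or more genes and no more than 20% of counts from mitochondrially encoded genes. It was a mature neutrophil with at least 1 count of Cxcr2, counts for at least 2 of the 6 supporting genes Csf3r, Mxd1, Trem1, G0s2, Retnlg and Mmp9, and no count of Csf1r, Cd79a or Cd3e. Of these, cells with no Cxcl2 count and with fewer than 2 counts summed over Stfa1, Stfa2, Stfa2l1, Stfa3, BC100530 and Gm5483 were taken. All 17 genes of the rule were thus used to choose the cells, and their values are a description. The other mature neutrophils make up 2 neighbouring groups, the Cxcl2-positive low-stefin cells and the stefin-expressing cells.

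Single-cell libraries were made from bone marrow of C57/BL6 mice, from femurs and tibias. The T1D library came from mice with high blood sugar treated with streptozotocin, which destroys pancreatic beta cells. The control library came from mice with normal blood sugar treated with sodium citrate solution. Each group is a single library (n = 1), and the sources used here do not give the number or age of the mice behind it. No difference between T1D and control below therefore has a replicate check, no test between them was possible, and the intervals given are exact 95% intervals that cover counting error only.

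Neutrophils mature in the marrow along a sequence that can be read from the genes of their granules. Promyelocytes make the proteases of the primary granules, myelocytes and metamyelocytes make the proteins of the secondary granules under the transcription factor C/EBP epsilon, and band and segmented cells make gelatinase and the receptors used in blood. Cxcr2 binds Cxcl1 and Cxcl2 and draws mature neutrophils out of the marrow, against the retaining signal of Cxcr4. Cxcl2 and Il1b are themselves made by neutrophils, rapidly and under NF-kB, after stimulation or handling, and stefins are small inhibitors of cysteine proteases.

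The T1D library held 52022458 counts and the control library 57494166. The chosen cells had a median of 2733 counts and 761 genes in the T1D library, against 3340.5 counts and 874.5 genes in the control library. They were not the shallow end of the mature neutrophils, since the Cxcl2-positive low-stefin cells had medians of 2397 counts in T1D and 2929.5 in control. The shallowest kept cell had 1369 counts in T1D and 1904 in control, and every share of cells carries this gap. Ribosomal RNA took a median of 35.7% of the counts of a chosen cell in T1D and 31.2% in control. The libraries shared 253 cell barcodes, 3 of them among the chosen cells.

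The markers of the label were all present, but at a lower level than in the other mature neutrophils. Levels are CPM, counts scaled to 1000000 over the counts summed over a group of cells in 1 library. Retnlg, which encodes a secreted resistin-like protein and rises late in neutrophil maturation, stood at 10325 CPM in T1D and 10568 CPM in control. In the Cxcl2-positive low-stefin cells it stood at 22446 CPM in T1D and 25940 CPM in control, and in the stefin-expressing cells at 25340 CPM in T1D and 29078 CPM in control. Cxcr2 stood at 632 CPM in T1D and 652 CPM in control. Of the chosen cells, 49.3% in T1D and 39.0% in control had exactly 1 count of it. Mmp9, the gelatinase of the tertiary granules, stood at 874 CPM in T1D and 1234 CPM in control. As a reference for RNA that does not come from the cell itself, cells with a Cd3e count and none of Cxcr2, Csf1r or Cd79a were taken, 150 in T1D and 132 in control, with median totals of 2463 counts in T1D and 2811 in control. Retnlg reached 2126 CPM in them in T1D and 806 CPM in control, and Mmp9 138 CPM in T1D and 77.3 CPM in control. A Cxcl2 count was found in 15.3% of these cells in T1D and 5.30% in control, so a single count of Cxcl2 does not by itself set a neutrophil apart.

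The genes of the secondary granules, which belong to an earlier stage, took a large share of the transcripts of the chosen cells. Ngp, Ltf and Camp, which encode neutrophilic granule protein, lactoferrin and the cathelicidin antimicrobial peptide, together took a median of 6.59% of a chosen cell's counts in T1D and 8.89% in control. The same median was 1.61% in T1D and 1.81% in control for Cxcl2-positive low-stefin cells, 1.25% in T1D and 0.888% in control for stefin-expressing cells, and 0.217% in T1D and 0.0928% in control for the Cd3e-positive cells. At least 5% of the counts came from these 3 genes in 1373 chosen cells in T1D (63.0%) and 1405 in control (74.0%), and under 1% in 246 in T1D and 181 in control. The border at 5% is not a gap, as 322 T1D cells and 170 control cells lay between 4% and 6%. The word mature in the label thus rests on Cxcr2 and its supporting genes, while most of the cells also carried immature neutrophil genes at a higher level than the other mature groups did. The division gene Mki67 stood at 835 CPM in T1D and 762 CPM in control, against 698 CPM in T1D and 558 CPM in control in the Cd3e-positive cells, and no cycling is read from it.

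**Figure D1:**
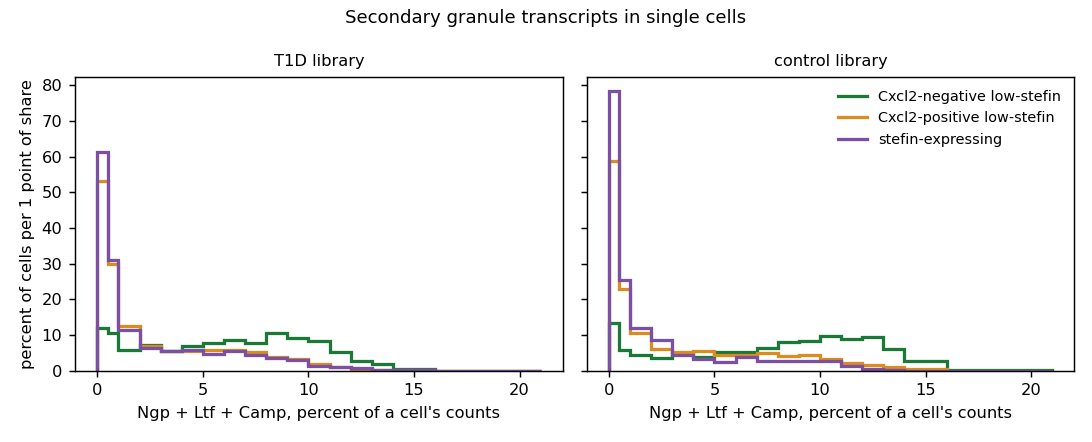
Share of single cells (vertical axis, percent of cells per 1 point of share) by the percent of a cell's counts from Ngp, Ltf and Camp (horizontal axis), for the 3 groups of mature neutrophils in the T1D library (left) and the control library (right). The Cxcl2-negative low-stefin cells spread out to high shares, with medians of 6.59% in T1D and 8.89% in control, whereas the other groups pile up near 0.

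The promoters of the 3 genes behind this measure are shown because the 3 together took a larger share of counts here than in the other mature neutrophils. They also differ in a motif of the C/EBP family, whose member C/EBP epsilon is known to drive secondary granule genes. Each sequence is the 250 bases before the gene's start, 5′ to 3′ on the gene's strand, from RefSeq on build GRCm38.p6, with matches to TTNNGCAA, read on either strand, in capitals. Ngp lies on the plus strand at chr9:110419558-110419807, Ltf on the plus strand at chr9:111019042-111019291 and Camp on the minus strand at chr9:109849457-109849706.
Ngp: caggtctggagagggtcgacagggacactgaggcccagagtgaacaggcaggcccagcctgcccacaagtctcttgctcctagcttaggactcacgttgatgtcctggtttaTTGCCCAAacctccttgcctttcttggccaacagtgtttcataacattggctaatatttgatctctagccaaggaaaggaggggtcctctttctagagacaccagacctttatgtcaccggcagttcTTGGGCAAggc
Ltf: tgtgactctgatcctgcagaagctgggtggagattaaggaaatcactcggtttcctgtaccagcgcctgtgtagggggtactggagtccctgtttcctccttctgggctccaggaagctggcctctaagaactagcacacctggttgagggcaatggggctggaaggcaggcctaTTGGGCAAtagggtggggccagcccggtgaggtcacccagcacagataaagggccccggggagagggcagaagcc
Camp: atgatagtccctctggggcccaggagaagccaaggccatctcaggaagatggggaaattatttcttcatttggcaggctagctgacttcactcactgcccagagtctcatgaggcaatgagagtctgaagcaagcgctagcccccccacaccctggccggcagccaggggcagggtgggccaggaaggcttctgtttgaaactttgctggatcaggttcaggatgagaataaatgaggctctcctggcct
The motif was found 2 times before Ngp and once before Ltf, and these letters are not in the Camp window. Of the 3 genes, Camp alone passed the size rule given below against the Cxcl2-positive cells in both libraries. None of the 3 did against the stefin-expressing cells. Of 5 granule genes looked up (these 3 with Lcn2 and Fcnb), 4 held it, and 9.56% of 32851 promoters of the same length did. The 5 were picked by hand as granule genes, so no enrichment is read from these numbers. A match of letters is a description and not a measured binding site.

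The cells just inside and just outside the rule showed how gradual its borders are. In T1D 1812 chosen cells had no stefin count and 369 had 1, while 157 cells fell outside with 2 stefin counts and no Cxcl2. In control these numbers were 1783, 115 and 37. Retnlg stood at 9793, 12827 and 16074 CPM over these steps in T1D, and at 10014, 19165 and 22600 CPM in control. Cells outside by 1 count of Cxcl2, 650 in T1D and 448 in control, had 16305 CPM of Retnlg in T1D and 19703 CPM in control, while Il1b stood at 472 CPM in T1D and 363 CPM in control. The step across either border was thus part of a longer gradient, in which Retnlg and Il1b were higher and the granule share lower on the outer side.

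The chosen cells made up similar shares of the marrow in both libraries but different shares of the mature neutrophils. They were 14.0% of kept cells in T1D (13.5 to 14.6%) and 14.8% in control (14.2 to 15.5%), a ratio of T1D over control of 0.944 (0.888 to 1.00). Of all mature neutrophils they were 32.6% in T1D and 42.6% in control, a ratio of 0.765 (0.719 to 0.814). The Cxcl2-positive low-stefin cells were 35.5% of mature neutrophils in T1D and 43.0% in control, and the stefin-expressing cells 31.9% in T1D and 14.4% in control. Fewer low-stefin cells among mature neutrophils and more stefin-expressing cells are one and the same fact here, since the shares sum to the whole. A stray count of Cxcl2, or stray counts of stefins, could take a cell out of the chosen group. Cxcl2 was counted in 15.3% of the Cd3e-positive cells in T1D and 5.30% in control. The part of stray counts in these shares was not tested. With cells of no stefin count alone the ratio over kept cells was 0.835, with at least 2 counts of Cxcr2 it was 0.785, and with both libraries thinned to 1000 counts a cell the ratio over mature neutrophils was 0.827.

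**Figure D2:**
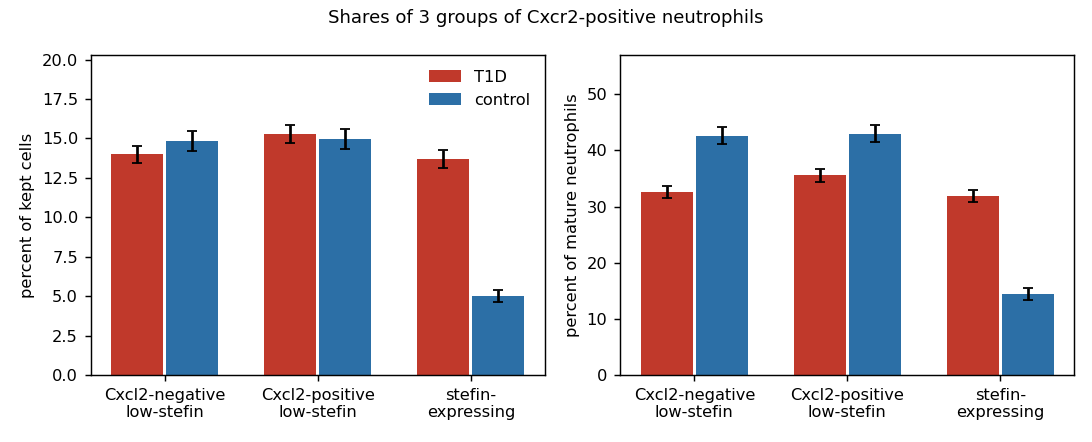
Percent of kept cells (left) and of mature neutrophils (right) in each of the 3 groups, with the T1D library in red and the control library in blue, and exact 95% binomial intervals as error bars (counting error only). The Cxcl2-negative low-stefin cells differ by under 1 point of kept cells, and are 32.6% of T1D and 42.6% of control mature neutrophils.

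Against their Cxcl2-positive counterparts, the chosen cells had less of the inflammatory transcripts of mature neutrophils and more of a few genes of the preceding stage. A gene passed the size rule with an absolute log2 ratio of at least 1 (5 CPM added to both values), at least 50 CPM in the higher group and a counting interval that excludes 1, and here it had to do so in both libraries. Of 2095 genes measured, 41 were lower by this rule (1.96%) and 6 higher (0.286%). Regardless of size, 837 of the 2095 lay below in both libraries and 938 above, which is the background of the list counts that follow. The cells were chosen on counts from these same libraries, so all of this is description.

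Il1b, the precursor of interleukin-1 beta, stood furthest below. It was at 180 CPM in the chosen cells and 1234 CPM in the Cxcl2-positive cells of the T1D library (6.84-fold lower), and at 124 CPM in the chosen and 965 CPM in the Cxcl2-positive cells of the control library (7.82-fold lower). Acod1, which makes itaconate in activated myeloid cells, was 5.23-fold lower in T1D and 6.06-fold lower in control, and Ptgs2, the inducible cyclooxygenase, 4.97-fold lower in T1D and 5.07-fold in control. Nlrp3, the inflammasome sensor that leads to interleukin-1 release, was 5.02-fold lower in T1D and 4.74-fold in control. The chemokine Ccl6, the lectin receptors Clec4d and Clec7a, the secreted protein Wfdc17, the metabolite receptor Hcar2 and Pla2g7, which breaks down platelet-activating factor, completed the 10 genes furthest below, all between 3.13-fold and 8.32-fold lower in either library. Cxcl2 is itself in the list of NF-kB targets and was left out of it. The other 19 measured genes of that list were all below the Cxcl2-positive cells in both libraries, 9 of them by the size rule, with medians of -1.10 in T1D and -1.09 in control on the log2 scale, beside 0.03 in T1D and 0.01 in control over all genes. In the interleukin-1 family 6 of 6 measured genes were below and 3 passed. Of the immediate early genes, switched on quickly by stimulation or tissue dissociation, 13 of 14 were below and 4 passed.

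The 6 genes above were Fcnb, Zmpste24, Ncam1, Camp, Cebpe and Lta4h. Fcnb, a ficolin of the lectin complement pathway made by immature neutrophils, stood at 180 CPM in the chosen and 81.1 CPM in the Cxcl2-positive cells of the T1D library, and at 173 CPM in the chosen and 57.0 CPM in the Cxcl2-positive cells of the control library. Cebpe, the C/EBP factor of the granule genes, stood at 75.0 CPM in the chosen and 31.8 CPM in the Cxcl2-positive cells in T1D, and at 109 CPM in the chosen and 49.8 CPM in the Cxcl2-positive cells in control. Camp was 2.03-fold higher in T1D and 2.25-fold in control, Lta4h, which makes leukotriene B4, 2.05-fold in T1D and 2.25-fold in control, and Zmpste24, the protease of lamin A processing, 2.35-fold in T1D and 2.56-fold in control. All 10 immature neutrophil markers were above in both libraries, with median log2 ratios of 0.82 in T1D and 0.95 in control, and 3 passed the rule. Of 14 measured secondary granule genes, 12 were above, with medians of 0.42 in T1D and 0.49 in control.

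Against the stefin-expressing cells the genes above by the size rule differed from those against the Cxcl2-positive cells, while many of the genes below were shared. The stefin-expressing cells also carried Cxcl2, at 1513 CPM in T1D and 1954 CPM in control. In the Cxcl2-positive cells it stood at 1553 CPM in T1D and 1716 CPM in control. Both comparisons thus set cells without a Cxcl2 count against a group rich in it. Of 2118 genes measured, 60 were lower (2.83%) and 1, the immunoglobulin gene Igha, was higher (0.0472%). Regardless of size, 944 of the 2118 lay above in both libraries and 821 below. All 10 immature neutrophil markers were above in both libraries, and none passed. Their median log2 ratios were 0.77 in T1D and 1.09 in control. Of 14 measured secondary granule genes, 12 were above, with medians of 0.39 in T1D and 0.64 in control. Il1b was 8.28-fold lower in T1D and 13.1-fold lower in control. The lists of lower genes against both groups shared 39 genes, which is 95.1% of the list against Cxcl2-positive cells and 65.0% of that against stefin-expressing cells. Both lists use the same chosen cells, so this overlap is no separate support. Igha, a plasma cell transcript, stood at 292 CPM in the chosen and 57.6 CPM in the stefin-expressing cells of the T1D library and at 696 CPM in the chosen and 41.1 CPM in the stefin-expressing cells of the control library, with 1153 of its 2041 T1D counts and 2327 of its 5205 control counts in a single cell of each library.

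**Figure D3:**
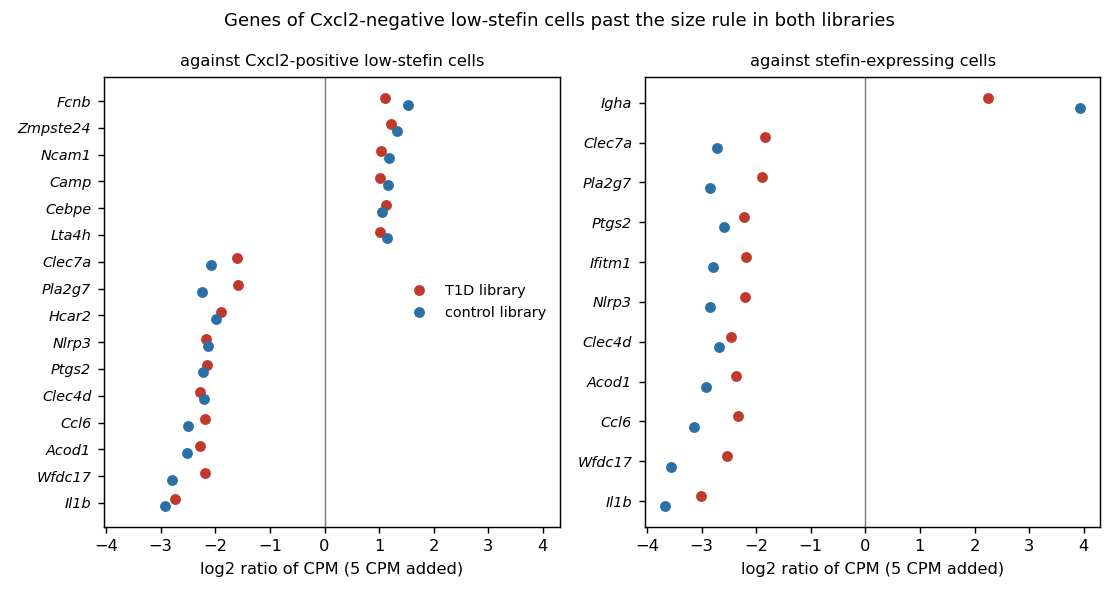
Log2 ratio of CPM in Cxcl2-negative low-stefin cells over Cxcl2-positive low-stefin cells (left) and over stefin-expressing cells (right), for up to 10 genes furthest above and 10 furthest below among those past the size rule in both libraries, with the T1D library in red and the control library in blue. Il1b is lowest in both panels, and genes of the immature stage such as Fcnb and Cebpe are above 0 on the left.

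The chosen cells were not uniform, and many of their genes varied with the share of Ngp, Ltf and Camp. The cells of each library were divided into 4 bins of nearly equal size by this share, with borders at 3.06%, 6.59% and 9.34% in T1D and at 4.81%, 8.89% and 11.7% in control, so that a bin does not hold the same range in both. Retnlg stood at 18645, 13094, 7102 and 4295 CPM from the lowest to the highest bin in T1D, and at 22631, 12986, 5486 and 2650 CPM in control. Il1b stood at 432 CPM in the lowest and 43.3 CPM in the highest bin in T1D, and at 385 and 9.61 CPM in control. The cells of lowest granule share thus came nearest to the levels of the Cxcl2-positive cells. Chil3, a chitinase-like protein of immature neutrophils, ran the other way, from 1084 to 5641 CPM over the bins of T1D and from 900 to 7297 CPM over those of control. Cebpe ran with it, from 31.1 to 113 CPM in T1D and from 29.1 to 178 CPM in control. The median total count of a cell was also lower in the lowest bin, 2163 against 3210 in the highest in T1D, and 2713 against 3752.5 in control. Of 2375 genes measured outside these 3, 77 were higher (3.24%) and 286 lower (12%) by the size rule in the highest than in the lowest bin in both libraries. The bins were cut on counts of the same cells, and these are descriptions.

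The lowest bin also held most of the cells with transcripts of other cell types. At least 3 detected markers of 1 other type were found in 261 chosen cells in T1D and 258 in control, of which 141 in T1D and 144 in control lay in the lowest bin. Monocyte markers were the most frequent of the non-neutrophil lists in T1D, in 116 chosen cells against 86 in control, and B cell markers in control, in 17 in T1D against 96 in control. Among the genes furthest above in the lowest bin were Igha and Jchain of plasma cells, Ccr2, F13a1 and Fn1 of monocytes, and Prss34 and Mcpt8 of basophils. Mpo, a primary granule gene, stood at 809 CPM in the lowest and 34.1 CPM in the highest bin in T1D, and at 480 and 10.1 CPM in control. No doublet was called or removed here, and the part of doublets or free RNA in these cells was not tested.

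**Figure D4:**
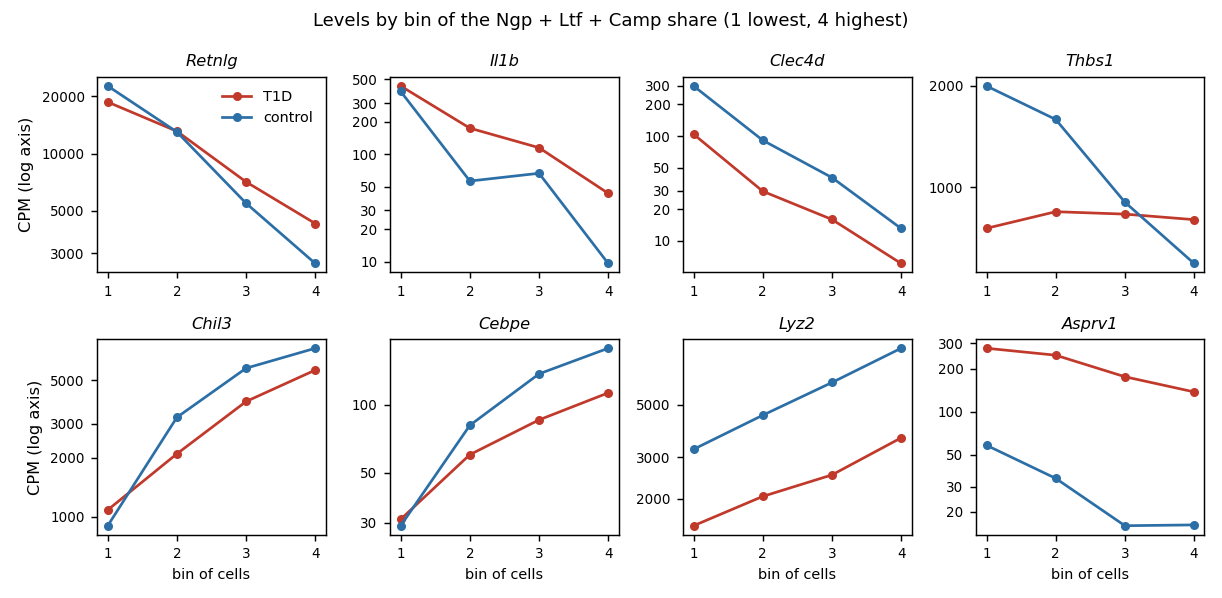
CPM (log axis) of 8 genes over the bins of Cxcl2-negative low-stefin cells ordered by the share of Ngp, Ltf and Camp, from 1 (lowest) to 4 (highest), with T1D in red and control in blue. From bin 1 to bin 4 Retnlg, Il1b and Clec4d are lower and Chil3, Cebpe and Lyz2 higher in both libraries, while Thbs1 declines in control and stays between 755 and 846 CPM in T1D and Lyz2 and Asprv1 keep T1D and control apart in every bin.

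Between the libraries, the chosen cells of the T1D library had more of a small set of genes around Asprv1, H1f0 and Cebpb and less of lysozyme, the interferon-induced genes Ifitm3, Oas3 and Ifi27, and the lectin receptor Clec4d. Of 2327 genes measured, 23 were higher in T1D by the size rule (0.988%) and 14 lower (0.602%), with a median log2 ratio of 0.04 over all genes. Regardless of size, 1278 of the 2327 lay above control (54.9%) and 1049 below, which is the background of the counts of each list. The split depended on the scaling, and was 20 higher and 23 lower with either TMM or DESeq2 scaling, under which the all-gene median shifted by -0.09 and -0.10. The chosen cells also differed in granule share, as given above, and for the 15 genes furthest above and the 10 furthest below control a call lost on either side of the 5% border is given beside the gene.

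H1f0, a linker histone of cells that have left the cycle, stood at 135 CPM in T1D and 8.69 CPM in control, 15.5-fold higher (12.1 to 20.3). It was counted in 478 T1D cells and 43 control cells, and its log2 ratio was 2.22, 2.84, 4.26 and 3.82 from the lowest to the highest bin. In the Cd3e-positive cells, which hold RNA that is not their own, it stood at 69.2 CPM in T1D and 11.7 CPM in control, and the part of free RNA in its value was not tested. Asprv1, an aspartic protease, stood at 205 CPM in T1D and 30.3 CPM in control, 6.75-fold higher (5.86 to 7.79), and at 51.3 CPM in T1D and 4.69 CPM in control in the Cd3e-positive cells. Its level declined over the bins in T1D, where it was 277 CPM in the lowest and 137 CPM in the highest bin, against 58.2 and 16.2 CPM in control. Prok2, a chemokine-like secreted protein of neutrophils, stood at 108 CPM in T1D and 44.7 CPM in control (2.42-fold). In the Cd3e-positive cells it stood at 26.8 CPM in T1D and 2.34 CPM in control. The part of free RNA in the values of Asprv1 and Prok2 was not tested. Of the list built around Asprv1 and Prok2 in earlier work on these data, 5 of 5 measured genes were above control and 4 passed the rule, with a median log2 ratio of 1.90; the list was chosen on these libraries and is no separate evidence of its direction. The same 5 genes stood above control in the Cxcl2-positive cells, with a median of 1.46, and in the stefin-expressing cells, with a median of 1.70.

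Cebpb, the C/EBP factor of emergency neutrophil production, stood at 205 CPM in T1D and 67.6 CPM in control, 3.03-fold higher (2.74 to 3.36). Cebpe, the factor of the granule genes, did not pass the rule, at 75.0 CPM in T1D and 109 CPM in control. Cebpb was above control in every bin, and its level was highest in the lowest bin, at 296 CPM in T1D and 131 CPM in control. In the Cd3e-positive cells it stood at 116 CPM in T1D and 16.4 CPM in control, and the part of free RNA in its value was not tested. Id2, which blocks DNA binding by E proteins, stood at 174 CPM in T1D and 75.0 CPM in control (2.32-fold higher). Lipid droplet genes were in part higher: Hilpda, which inhibits triglyceride lipolysis, stood at 62.5 CPM in T1D and 13.2 CPM in control (4.72-fold), and Plin2, a coat protein of lipid droplets, at 150 CPM in T1D and 72.2 CPM in control (2.08-fold). In that list 6 of 7 measured genes were above control and 2 passed, with a median of 0.30. Cd38, which consumes NAD, stood at 70.2 CPM in T1D and 14.4 CPM in control (4.86-fold), and Glul, glutamine synthetase, at 88.9 CPM in T1D and 35.3 CPM in control (2.52-fold). Pla2g7, Spata13, Gm45221, Fn1, Pim1, Gstm1, Etfb and Nfkbia were also higher by the rule, between 2.08-fold and 4.70-fold. In the Cd3e-positive cells Plin2 stood at 136 CPM in T1D and 16.4 CPM in control. Glul was there at 80.3 CPM in T1D and 32.8 CPM in control, and Gstm1 at 78.1 and 16.4 CPM. Id2 was at 185 CPM in T1D and 173 CPM in control, Hilpda at 15.6 and 16.4 CPM. Cd38 was at 20.1 CPM in T1D and 39.8 CPM in control. The part of free RNA in the values of these genes was not tested. Pla2g7 did not pass in cells with a granule share of at least 5%, where its log2 ratio was 2.30, beside 1.90 over all chosen cells. Nfkbia, the inhibitor of NF-kB that is itself an NF-kB target, stood at 310 CPM in T1D and 149 CPM in control, while the list of NF-kB targets was split, with 8 of 18 measured genes above control and a median of -0.12.

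Some of the higher genes rested on few cells. Prg2, an eosinophil granule protein, had 496 counts in 13 T1D cells, 222 of them in 1 cell, against 32 counts in 7 control cells. Its log2 ratio was 3.03 over all chosen cells and 0.14 in those with a granule share of at least 5%. The globin genes Hbb-bs, Hbb-bt, Hba-a1 and Hba-a2, which belong to erythroid cells, were between 2.17-fold and 2.58-fold higher in T1D. Hbb-bs had 4813 counts in 297 T1D cells, 471 of them in 1 cell, and 1993 counts in 215 control cells, 448 of them in 1 cell. Without the cells that had at least 3 markers of another type, the log2 ratio of Hbb-bs was 0.47, that of Hba-a2 0.14 and that of Cd74 -0.57. In cells of at least 5% granule share neither globin passed, at 0.54 for Hbb-bs and 0.71 for Hba-a2. Ighg1 had 627 counts in 48 T1D cells, 460 of them in 1 cell, and none in control. Without the cells that had at least 3 markers of another type, 18 genes were higher and 11 lower. Fn1, fibronectin, is also among the monocyte markers and had a log2 ratio of 1.16 over all chosen cells. It did not pass the rule without the cells with markers of another type (1.33). Nor did it pass in cells of at least 5% granule share (1.26) or under it (0.71). At 1.33 and 1.26 the ratio itself was past 1, so another condition of the rule was not met there.

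A few interferon-induced genes passed the rule below control. Ifitm3, a membrane protein that blocks virus entry, stood at 213 CPM in T1D and 576 CPM in control, 2.70-fold lower (2.55 to 2.87). Oas3, a sensor of double-stranded RNA, stood at 30.3 CPM in T1D and 86.4 CPM in control (2.85-fold lower), and Ifi27 at 29.0 CPM in T1D and 83.8 CPM in control (2.89-fold lower). Of the type I interferon list, only 7 of 38 genes were measured; all 7 lay below control and 2, Ifitm3 and Oas3, passed, with a median log2 ratio of -0.47. The median was -0.35 in cells with a granule share of at least 5% and -0.92 in those under 5%. The same list had 12 of 12 measured genes below control in the Cxcl2-positive cells, with a median of -0.73, and 14 of 14 in the stefin-expressing cells, with a median of -0.999. These groups are different cells of the same libraries, and the difference between the medians was not tested. Slfn4, the most abundant of the list here, stood at 1042 CPM in T1D and 1473 CPM in control.

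Lyz2, lysozyme, stood at 2502 CPM in T1D and 5757 CPM in control, 2.30-fold lower (2.26 to 2.34). It was counted in 2024 T1D cells and 1872 control cells. In cells with a granule share under 5% its log2 ratio was -0.96, short of the rule. It climbed with the granule share in both libraries but was lower in T1D in every bin, from 1542 CPM in T1D and 3244 CPM in control in the lowest to 3626 CPM in T1D and 8669 CPM in control in the highest. The other secondary granule genes differed less. Of 15 measured, 13 were below control and Lyz2 alone passed the rule, with a median of -0.32, which was -0.25 in cells with a granule share of at least 5% and 0.09 in those under 5%. Lcn2, the siderophore-binding lipocalin, stood at 6390 CPM in T1D and 10968 CPM in control, and Ngp at 30210 CPM in T1D and 39448 CPM in control. The alarmin S100a8 stood at 14770 CPM in T1D and 26005 CPM in control and its partner S100a9 at 22069 CPM in T1D and 29732 CPM in control, while S100a6 went the other way, at 3477 CPM in T1D and 1985 CPM in control. None of these 3 passed the rule.

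Among receptors of pathogens and of antibodies and their adaptors, Clec4d and Tyrobp passed the rule below control. Clec4d, a C-type lectin that binds mycobacterial lipids, stood at 36.3 CPM in T1D and 106 CPM in control, 2.92-fold lower (2.54 to 3.38). Its log2 ratio was -1.48, -1.47, -1.10 and -0.71 from the lowest to the highest bin, and it did not pass in cells with a granule share of at least 5%, at -1.56. Tyrobp, the signalling adaptor of many such receptors, stood at 211 CPM in T1D and 431 CPM in control (2.04-fold lower). Its log2 ratio of -1.01 lay at the threshold. It did not pass in cells of at least 5% granule share (-0.96), with at least 3 supporting genes (-0.96) or with totals free of ribosomal RNA (-0.94). In the Cd3e-positive cells Tyrobp stood at 40.2 CPM in T1D and 89.1 CPM in control, and the part of free RNA in its value was not tested. In the list of pattern and Fc receptors 12 of 14 measured genes were below control, 2 of them by the rule, with a median of -0.39 (-0.36 in cells of at least 5% granule share and -0.55 under it), and Fcer1g, the other main adaptor, stood at 940 CPM in T1D and 1291 CPM in control. Genes of the oxidative burst had 9 of 11 below control and none past the rule, with a median of -0.27. The list of receptors of retention and release was split, with 7 of 13 measured genes above control and none past the rule. Cxcr4 stood at 165 CPM in T1D and 110 CPM in control, and the list's median was 0.02, or -0.06 with TMM and -0.07 with DESeq2 scaling.

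Hspa5, which encodes the chaperone BiP of the endoplasmic reticulum, stood at 248 CPM in T1D and 517 CPM in control, 2.09-fold lower (1.97 to 2.21), a log2 ratio of -1.05 that was -0.97 and no longer past the rule with totals free of ribosomal RNA. Of 11 measured genes of the unfolded protein response, 10 lay below control and Hspa5 alone passed, with a median of -0.24. Hspa5 was at 321 CPM in T1D and 502 CPM in control in the Cd3e-positive cells. Of the listed mitochondrially encoded genes, all 7 measured were below control with none past the rule, with a median of -0.66. Among them was mt-Nd2, at 73.6 CPM in T1D and 145 CPM in control. This list took only 0.0938% of counts in T1D and 0.145% in control. All mitochondrially encoded transcripts together took similar shares, 2.99% in T1D and 2.98% in control in the lowest bin. In the highest bin they took 2.12% in T1D and 2.24% in control. The cytoskeletal genes Myl12a and Dynll1 were 2.26-fold and 2.28-fold lower. Myl12a did not pass in cells with a granule share under 5% (a log2 ratio of -0.73), and Dynll1 did not in cells of at least 5% (-0.97), with at least 2 counts of Cxcr2 (-0.92) or after thinning (-0.64). Cd74, the invariant chain of MHC class II, stood at 54.0 CPM in T1D and 129 CPM in control. It is a B and dendritic cell gene and was counted in 103 T1D cells and 223 control cells. The immunoglobulin genes Ighm, Igkc, Igha and Ighg2c were lower by the rule as well. Over all kept cells Ighm stood at 223 CPM in T1D and 909 CPM in control, and the part of free B cell RNA in these values was not tested. Of the primary granule genes 5 of 6 measured lay above control and none passed the rule. Their median log2 ratio was 0.76, but ranged from -0.55 in cells with at most 2 counts of Ngp, Ltf and Camp to 1.35 after thinning. Mpo stood at 286 CPM in T1D and 153 CPM in control. At least 3 of 5 primary granule markers were counted in 8.30% of the chosen cells in T1D and 3.85% in control, and the part of these cells in the median was not tested.

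**Figure D5:**
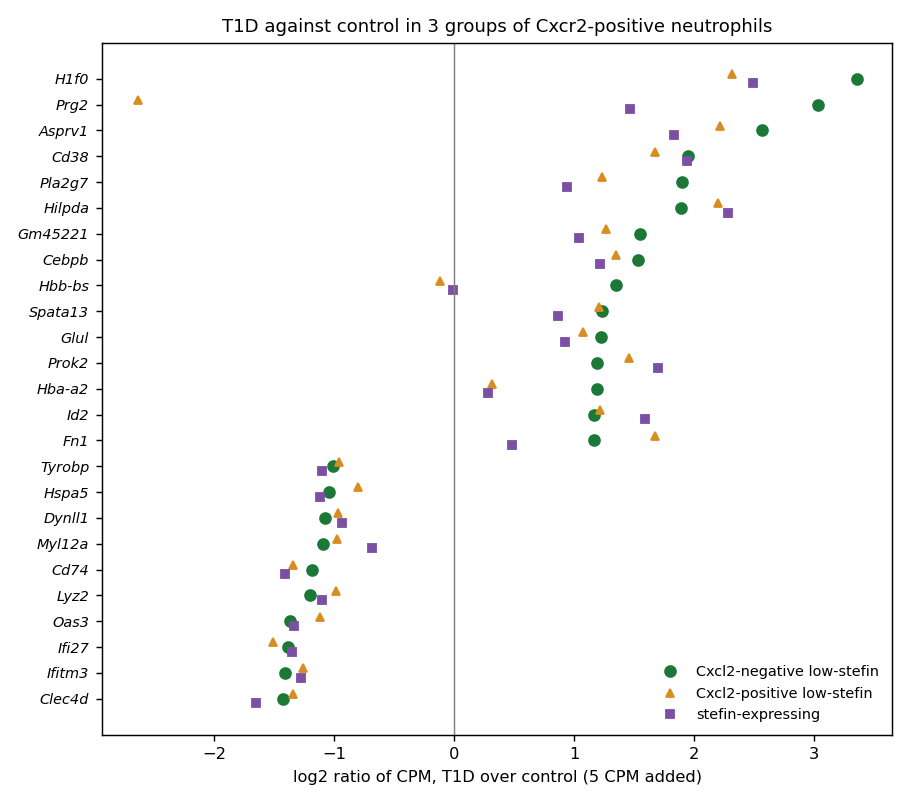
Log2 ratio of CPM, T1D over control, for the 15 genes furthest above and the 10 furthest below among those past the size rule in Cxcl2-negative low-stefin cells (green circles), with the same genes in Cxcl2-positive low-stefin (orange triangles) and stefin-expressing cells (purple squares). Most genes lie on the same side of 0 in all 3 groups, while Prg2 and Hbb-bs are below 0 in the Cxcl2-positive cells.

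Of the 25 named genes, 23 lay on the same side of control in both neighbouring groups as in the chosen cells, with Prg2 and Hbb-bs the exceptions. For example, Asprv1 had log2 ratios of 2.57 in the chosen cells, 2.21 in the Cxcl2-positive cells and 1.84 in the stefin-expressing cells, and Ifitm3 had -1.41, -1.26 and -1.27. Thbs1, thrombospondin 1, differed within the chosen cells. It stood at 755, 846, 832 and 801 CPM over the bins in T1D, and at 1999, 1590, 903 and 593 CPM in control, so that its log2 ratio was -1.40 in the lowest and 0.43 in the highest bin. Over all chosen cells it stood at 809 CPM in T1D and 1244 CPM in control, with a log2 ratio of -0.62. Retnlg, a gene of the rule, showed a milder form of this. Its log2 ratios were -0.28, 0.01, 0.37 and 0.70 over the bins and -0.03 over all chosen cells. The bins were cut in each library alone and hold different ranges of granule share in T1D and control. Every ratio of T1D over control by bin carries this gap, and the part of the gap in these ratios was not tested.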

How the data were processed

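The authors deposited tables of raw whole-number counts for each gene in each barcode. Cells were freed from bone with collagenase and dispase, red cells were lysed and libraries were made with the Singleron GEXSCOPE kit, per the labels' protocols. The submitters' processing notes name bcl2fastq 2.19, featureCounts and build mm9. Aligner and identifier collapse: not given in the sources used here. No coordinates were taken from the tables.

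Counts were summed over the cells of a group in each library and divided by that sum (CPM). Log2 ratios had 5 CPM added. Fold values are plain ratios of CPM with exact conditional binomial intervals, and shares have exact Clopper-Pearson intervals, both at 95%. No test was made, as each group had 1 library. The 17 rule genes were left out of counts and lists. Text names the 15 genes furthest above and below control past the size rule, without immunoglobulin, mitochondrial and ribosomal RNA genes (10 were found below), 10 each way against each neighbouring group, and up to 5 per list. Thbs1 and S100a6 over the bins and beside S100a8 were chosen after their values were seen. Members, lists and named comparisons were chosen with earlier results of these data known. On simulated counts of 19392 genes, the rule between T1D and control found 17 of 50 true 2-fold differences, none of 50 at 1.5-fold and every one of 50 at 3-fold or 4-fold, with 0 unchanged genes called. The simulated sums held counting error only and no differences between cells, so they cannot show how often calls resting on few cells are wrong. The 95% intervals held the true ratio for 93.0% of the changed genes. Scaling factors came from edgeR 4.0.16 (TMM) and DESeq2 1.42.0. No doublets were removed. Promoters came from a RefSeq table of GRCm38.p6, in which 5 of 5 genes looked up were found.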

Additional observations from a re-analysis of the deposited data

How the results depend on the processing

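No paired analysis was possible because there was 1 library in each group, and for the same reason no replicate could be left out. The share ratios of T1D over control were 0.835 (kept cells) and 0.677 (mature neutrophils) with no stefin count, 0.868 with at least 3 supporting genes and 0.785 with at least 2 counts of Cxcr2 (both of kept cells), and 0.827 of mature neutrophils after thinning to 1000 counts. Against Cxcl2-positive cells, genes lower in the chosen cells numbered 66 with no minimum CPM and 23 after thinning, and genes higher 3 with at least 3 supporting genes or at least 2 counts of Cxcr2, and 12 after thinning. Against stefin-expressing cells, genes lower numbered 101 with no minimum and 35 after thinning. Genes higher numbered 2 with 1 CPM added, with no minimum or with no stefin count, 3 with at least 3 supporting genes, 4 with at least 2 counts of Cxcr2 and 18 after thinning.

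Within the chosen cells, genes higher in T1D numbered 45 with no minimum and 36 with totals free of ribosomal RNA. Genes lower in T1D numbered 23 with TMM or DESeq2 scaling, 34 with a minimum of 20 CPM, 41 after thinning, 58 in cells with a granule share under 5% and 61 with no minimum. In cells with at most 2 counts of Ngp, Ltf and Camp, of which there were 31 in T1D and 29 in control, 196 genes were higher and 368 lower. There the log2 ratios of Clec4d (0.50), Ifitm3 (0.086), Oas3 (1.00), Lyz2 (0.22) and Myl12a (1.37) turned positive. The cause of these changes was not tested. Under the other 16 alternatives all 25 named genes kept their direction, and 10 of the higher and 3 of the lower genes passed the rule in each. Of 425 values of the named genes, 35 fell short of the rule in the same direction. Leaving out cells with markers of another type, a Cxcr2 minimum of 2 and the split by granule share at 5% were alternatives chosen after seeing the data. Depth limits genes under 50 CPM and changes near 2-fold.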
